A study of Mus musculus with 8 samples.

Results

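Kcnj10, a potassium channel of the inward rectifier family, and Clic5, a chloride intracellular channel protein, were followed in livers of mice lacking Mc1r in hepatocytes, together with 6 of their relatives. The relatives were Kcnj16 and Kcnj8 among the inward rectifiers and Clic1, Clic3, Clic4 and Clic6 among the CLIC proteins. These 8 genes, of 55487 in the count tables, were matched by symbol. Kcnj10 and Clic5 had been chosen because their read counts were lower in the Mc1r-deficient livers of this same comparison, so their difference is described here without a test. The relatives were chosen by family membership, and the question was whether the lower level of Kcnj10 and Clic5 extended to them.

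Mc1r encodes the melanocortin 1 receptor, a receptor on the cell surface that raises cyclic AMP when melanocortin hormones bind. Controls were Mc1r fl/fl mice, which carry both floxed alleles and no Cre, and Mc1r LKO mice were Mc1r fl/fl animals that also carried Alb-Cre, a Cre recombinase driven by the albumin promoter and thus active in hepatocytes, while other liver cells keep the gene. All mice were male and received a cholesterol-rich Western diet for 12 weeks from 8 weeks of age and were fasted for 4 h before the end, and mRNA of whole liver was sequenced from 4 mice of each genotype. The effect of Cre itself cannot be told apart from that of the deletion, because no Control mouse carried Cre. Mc1r had 0 counts in all 8 livers, so the genotype could not be checked at the targeted gene.

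Inward rectifier potassium channels pass potassium into the cell more readily than out of it and thereby hold the membrane near the potassium potential. Kcnj10 (Kir4.1) forms channels alone or with Kcnj16 (Kir5.1), best known from glia and from the basolateral membrane of the distal nephron, whereas Kcnj8 (Kir6.1) forms the pore of the ATP-sensitive potassium channel of pericytes and vascular smooth muscle together with the sulfonylurea receptor Abcc9. The CLIC proteins share a fold with the omega glutathione transferases and exist in a soluble and a membrane-associated form. Clic5 binds the ezrin complex at the base of microvilli and stereocilia, and Clic1 and Clic4 are made in most tissues.

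Total counts assigned to genes ran from 10773151 to 23161380 in Control and from 14196138 to 24763375 in Mc1r LKO livers, and 3 counts were worth 0.121 to 0.278 CPM, the counts scaled to a common library size. The 6 hepatocyte markers Alb, Ttr, Apoa1, Cps1, Cyp2e1 and Pck1 summed to between 72104.5 and 105142 CPM in every liver. On the first principal component Mc1r LKO mouse 182 (59.3) and Control mouse 181 (27.8) stood apart from the other 6 livers (-28.2 to -7.03), and values without both are given where they bear on a result. Control mouse 159, the lowest on the first component, stood apart on the second, at 40.5 against -22.0 to 8.40 in the other livers. Values without mouse 159 are among those with each liver left out in turn. In whole liver, fewer cells of a type and less RNA per cell cannot be told apart.

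The sequence upstream of both chosen genes is shown because of a match that no other member with an entry had. Each chosen gene held the hexamer TGTTCT, which is only a part of the glucocorticoid response element. The full element was not searched for. This hexamer was singled out from the motifs searched because it matched both genes, so its display is a description. Whether the match bears on the level of either gene was not tested. The windows are the 250 bases before the RefSeq start of each gene in GRCm38.p6, on the plus strand at chr1:172340960-172341209 for Kcnj10 and chr17:44188322-44188571 for Clic5, and capitals mark the hexamer, read as TGTTCT in Kcnj10 and as its reverse complement AGAACA in Clic5.
Kcnj10: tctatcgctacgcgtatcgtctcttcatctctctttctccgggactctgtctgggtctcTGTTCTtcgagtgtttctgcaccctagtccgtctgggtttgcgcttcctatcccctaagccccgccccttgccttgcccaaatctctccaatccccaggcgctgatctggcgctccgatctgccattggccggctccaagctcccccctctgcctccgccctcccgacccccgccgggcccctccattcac
Clic5: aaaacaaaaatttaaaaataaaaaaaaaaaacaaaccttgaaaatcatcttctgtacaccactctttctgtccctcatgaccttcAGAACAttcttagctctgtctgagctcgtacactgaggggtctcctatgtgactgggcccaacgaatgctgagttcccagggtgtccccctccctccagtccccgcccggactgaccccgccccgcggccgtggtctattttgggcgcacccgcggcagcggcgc
The match began 191 bases before the start of Kcnj10 and 165 bases before that of Clic5. TGTTCT on either strand was present in 16.1% of all 32851 windows of this length, against 2 of the 10 windows of the 7 members with an entry, and Kcnj16 accounted for 4 of those 10. The core TGACG of the cyclic AMP response element, present in 17.8% of all windows, occurred in the Kcnj8 window alone, and TATAAA, present in 12.4%, occurred in 1 of the 4 Kcnj16 windows. No member window held the full cyclic AMP response element TGACGTCA, which 1.55% of all windows held. Overlapping matches of TGACG within TGACGTCA were counted under both. GC content was 62.0% in the Kcnj10 window and 52.8% in the Clic5 window, beside a median of 52.4% over all windows. The RefSeq start of Clic5 at position 44188572 lies inside the gene as the count table defines it, which starts further upstream at position 44134768, and gene counts do not show which start was used.

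Kcnj10 (ENSMUSG00000044708, GRCm38 chr1:172341210-172374085, plus strand, 2 exons of 5407 bases in all) was read at 2.02, 4.74, 2.66 and 2.98 CPM in Control mice 154, 159, 181 and 193. In Mc1r LKO mice 141, 156, 157 and 182 its level was 1.59, 1.56, 1.09 and 1.02 CPM. Every Mc1r LKO liver was thus below every Control liver, with the narrowest gap between Control mouse 154 and Mc1r LKO mouse 141. The group means were 3.10 ± 1.16 CPM in Control and 1.32 ± 0.301 CPM in Mc1r LKO livers (SD, n = 4 each). The fitted log2 fold change was -1.23 (SE 0.32, 95% interval -1.94 to -0.52), a level 0.427 times that of Control. These values rested on 38, 51, 51 and 73 counts in Control and 23, 24, 27 and 20 counts in Mc1r LKO livers. Counting alone gave each liver's value a coefficient of variation of 11.7% to 22.4%.

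Clic5 (ENSMUSG00000023959, chr17:44134768-44280172, plus strand, 7 exons of 9669 bases in all) was read at 3.67, 2.88, 3.65 and 2.81 CPM in the Control livers, in the same order of mice. The Mc1r LKO livers gave 1.38, 0.975, 1.62 and 2.10 CPM. Again no Mc1r LKO liver reached the lowest Control liver. Group means were 3.25 ± 0.469 CPM and 1.52 ± 0.468 CPM (SD, n = 4 each), and the log2 fold change was -1.09 (SE 0.27, 95% interval -1.69 to -0.49), or 0.471 times Control. Read counts were 69, 31, 70 and 69 in Control and 20, 15, 40 and 41 in Mc1r LKO livers, with a counting coefficient of variation of 12.0% to 25.8%. Among all 13400 genes tested, every Mc1r LKO liver lay below every Control liver in 1.54% and above every Control liver in 2.63%, and Kcnj10 and Clic5, which were chosen for being lower, belong to the former. Nothing follows from their membership.

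**Figure D1:**
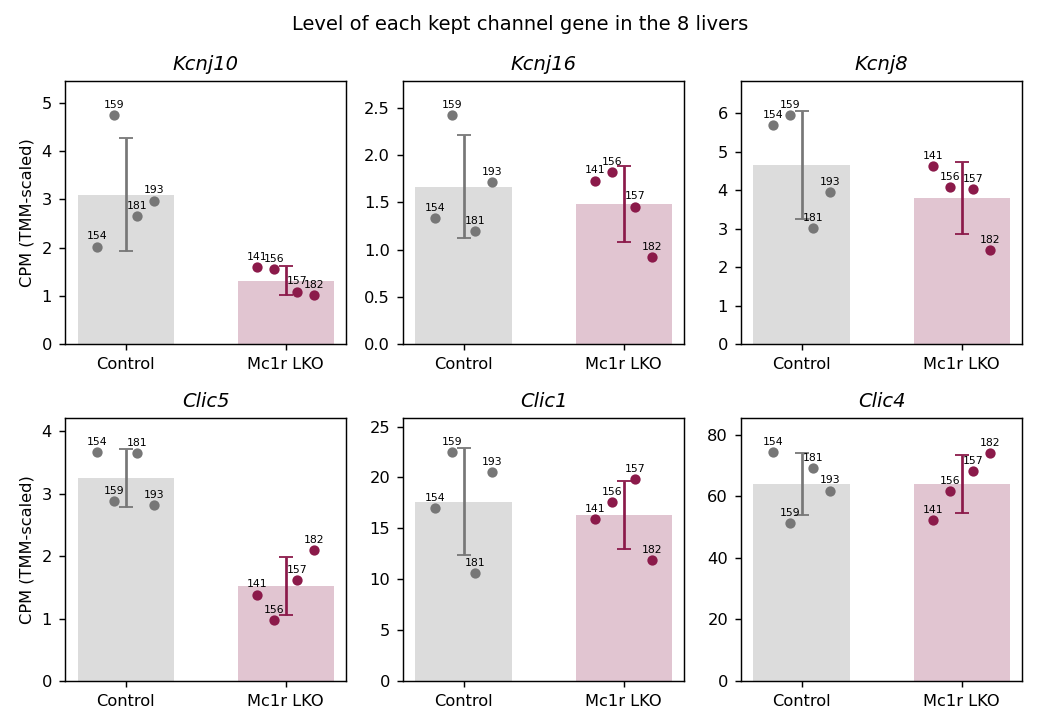
Level in CPM of the 6 channel genes kept for testing, 1 panel per gene, with a point for each liver. Filled bars reach the group mean and error bars show 1 SD on either side (n = 4 per genotype). Control and Mc1r LKO points are separate for Kcnj10 (2.02 to 4.74 against 1.02 to 1.59 CPM) and Clic5 (2.81 to 3.67 against 0.975 to 2.10 CPM) and overlap for Kcnj16, Kcnj8, Clic1 and Clic4.

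The size of the difference varied with the livers included, while its sign was fixed by the groups not overlapping. The log2 fold change of Kcnj10 ran from -1.38 without Control mouse 154 to -0.96 without Control mouse 159, the mouse with the highest Kcnj10 level. That of Clic5 ran from -1.27 without Mc1r LKO mouse 182 to -0.93 without Mc1r LKO mouse 156. Without mice 181 and 182, which stood apart on the first principal component, the values were -1.18 for Kcnj10 and -1.21 for Clic5. Within a genotype the livers were not ordered alike by the 2 genes. Control mouse 159 had the highest Kcnj10 level of its group but the second-lowest Clic5 level, and Mc1r LKO mouse 182 had the lowest Kcnj10 level but the highest Clic5 level of its group.

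Kcnj16 (ENSMUSG00000051497, chr11:110968033-111027968, plus strand), the partner of Kcnj10 in heteromeric channels, did not pass the test. Its level was 1.33, 2.42, 1.20 and 1.71 CPM in Control and 1.73, 1.82, 1.45 and 0.920 CPM in Mc1r LKO livers. The groups overlapped, and the highest and the lowest value were those of Control mouse 159 and Mc1r LKO mouse 182. Means were 1.66 ± 0.547 and 1.48 ± 0.405 CPM (SD, n = 4 each). The log2 fold change was -0.16 (SE 0.33, 95% interval -0.89 to 0.58), with an adjusted p = 0.958 (edgeR, quasi-likelihood test, Benjamini-Hochberg over all genes). The interval reaches from 0.540 to 1.49 times Control, so a moderate change in either direction was not detectable at 18 to 42 counts per liver. The sign itself depended on single livers, since the log2 fold change turned to 0.059 with Control mouse 159 left out and to 0.026 with Mc1r LKO mouse 182 left out. Per length, the ratio of Kcnj10 to Kcnj16 was 1.11, 1.43, 1.61 and 1.27 in Control and 0.670, 0.624, 0.546 and 0.809 in Mc1r LKO livers. Kcnj10 was therefore the more abundant transcript of the pair in every Control liver and the less abundant in every Mc1r LKO liver, a description that includes the values Kcnj10 was chosen for.

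Kcnj8 (ENSMUSG00000030247, chr6:142564837-142571614, minus strand) was read at 5.69, 5.95, 3.02 and 3.95 CPM in Control and 4.63, 4.09, 4.04 and 2.45 CPM in Mc1r LKO livers. The lowest liver of each genotype was mouse 181 and mouse 182, and the groups overlapped. Means were 4.65 ± 1.40 and 3.80 ± 0.940 CPM (SD, n = 4 each). The log2 fold change was -0.28 (SE 0.28, 95% interval -0.90 to 0.33), with an adjusted p = 0.897 in edgeR's quasi-likelihood test. It stayed below 0 with each liver left out in turn (-0.44 to -0.11) and was -0.27 without mice 181 and 182. Abcc9, the regulatory subunit that pairs with Kcnj8, was at 24.5 ± 2.80 CPM in Control and 25.2 ± 4.85 CPM in Mc1r LKO livers (log2 fold change 0.035, SE 0.14, adjusted p = 0.981 in edgeR). The subunits of the other ATP-sensitive channel, Kcnj11 and Abcc8, had 0 counts in all 8 livers.

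Clic4 (ENSMUSG00000037242, chr4:135213969-135272814, minus strand), the most abundant member by CPM, had nearly equal means in the genotypes. It was read at 74.3, 51.1, 69.1 and 61.8 CPM in Control and 52.1, 61.5, 68.2 and 74.0 CPM in Mc1r LKO livers, and the ranges of the groups nearly coincided. Means were 64.1 ± 10.1 and 64.0 ± 9.40 CPM (SD, n = 4 each). The log2 fold change was -0.0033 (SE 0.14, 95% interval -0.31 to 0.30, adjusted p = 0.996 in edgeR), which spans 0.806 to 1.24 times Control. With 550 to 1688 counts per liver this was the narrowest interval of the tested members. Its sign had no stability, being above 0 without Control mouse 154 (0.080), Control mouse 181 (0.036), Mc1r LKO mouse 141 (0.090) or Mc1r LKO mouse 156 (0.017).

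Clic1 (ENSMUSG00000007041, chr17:35049966-35058749, plus strand) was read at 17.0, 22.5, 10.6 and 20.5 CPM in Control and 15.9, 17.6, 19.8 and 11.9 CPM in Mc1r LKO livers. As for Kcnj8, mice 181 and 182 were the lowest of their groups. Means were 17.6 ± 5.23 and 16.3 ± 3.37 CPM (SD, n = 4 each). The log2 fold change was -0.11 (SE 0.23, 95% interval -0.62 to 0.40), with an adjusted p = 0.958 in edgeR's quasi-likelihood test. It turned to 0.031 when Control mouse 159 was left out and to 0.028 when Mc1r LKO mouse 182 was. Without mice 181 and 182 it was -0.15, with a smaller standard error of 0.14.

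Clic3 (ENSMUSG00000015093, chr2:25456838-25458776, plus strand) had 0 counts in all 8 livers, which allows up to 0.278 CPM in the shallowest library. Clic6 (ENSMUSG00000022949, chr16:92485736-92541243, plus strand) had 4, 0, 0 and 1 counts in Control and 2, 0, 1 and 0 counts in Mc1r LKO livers. Only 1 liver exceeded 3 counts, and no fold change is given. The means of Clic6 were 0.0657 ± 0.105 and 0.0453 ± 0.0665 CPM (SD, n = 4 each), with p = 0.714 in an exact two-sided permutation test whose smallest possible p is 0.0286. Neither gene was deep enough for the test across genes.

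Of the 4 relatives that could be tested (Kcnj16, Kcnj8, Clic1 and Clic4), 0 had an unadjusted p below 0.05 in edgeR together with a log2 fold change beyond 0.25 in either direction, a threshold that 5.31% of all 13400 genes passed. Of all genes, 2.66% passed it with a lower and 2.64% with a higher level in Mc1r LKO livers. At an adjusted p of 0.05, edgeR called 0 relatives and 0% of all genes, and the smallest adjusted p of any gene was 0.118. Over all genes, 901 had an unadjusted p below 0.05 without the fold limit, DESeq2 called 17 genes at an adjusted p of 0.05, and edgeR's likelihood ratio test called 8, none of them a relative. DESeq2 gave Kcnj16 and Kcnj8 no adjusted p, so it could not have called these relatives. The fitted sign was negative for all 4 relatives, beside 52.1% of all genes and a median log2 fold change of -0.01, but it held under every left-out liver for Kcnj8 alone. Whether the relatives changed less than Kcnj10 or Clic5 was not tested.

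**Figure D2:**
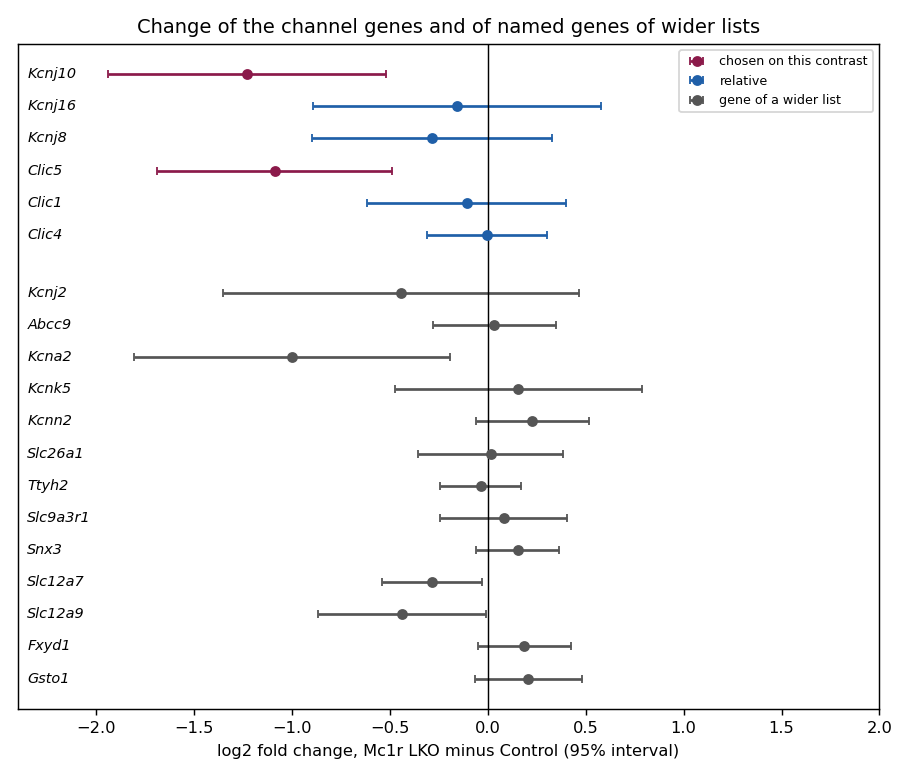
Log2 fold change (Mc1r LKO minus Control, x axis) with its 95% interval for the 6 tested channel genes and for named genes of wider channel and transporter lists. The 4 relatives' intervals include 0, and Kcnj10 (-1.23) and Clic5 (-1.09) were chosen on this contrast, so that their place in the plot is a description and no comparison with the relatives.

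**Figure D3:**
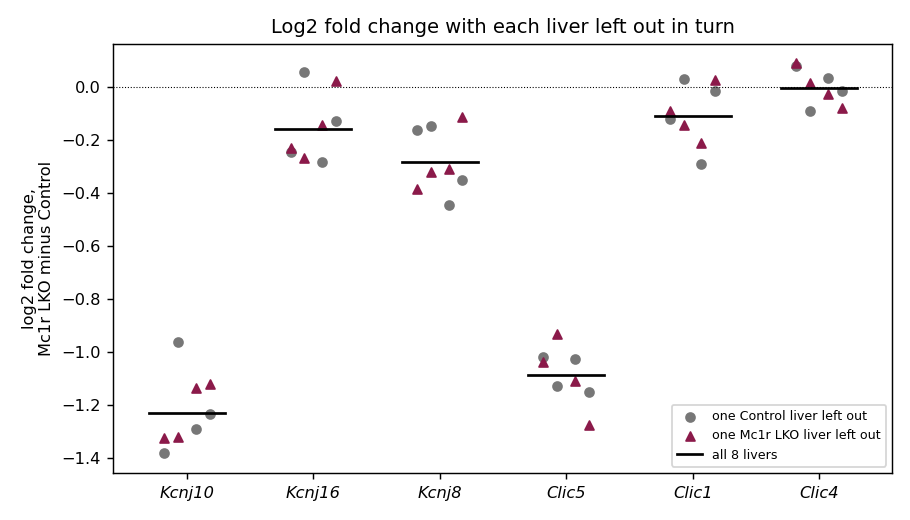
Log2 fold change of each tested channel gene (y axis) with 1 liver left out at a time, grey circles for a Control and red triangles for a Mc1r LKO liver, and a black line for all 8 livers. The relatives' values lie between -0.44 and 0.090, with Kcnj16, Clic1 and Clic4 on both sides of 0, and Kcnj10 (-1.38 to -0.96) and Clic5 (-1.27 to -0.93) show the spread of genes chosen on this contrast.

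Levels were compared between genes per length, as FPKM, the CPM divided by the exon length in kilobases. In Control livers Clic1 (9.80 ± 2.91) and Clic4 (9.75 ± 1.53) were the highest and did not differ beyond their spread. Kcnj8 followed at 1.83 ± 0.550, then Kcnj10 at 0.573 ± 0.215, Kcnj16 at 0.423 ± 0.139 and Clic5 at 0.336 ± 0.0485 FPKM (SD, n = 4). The Control ranges of the last 3 overlapped, whereas the range of Kcnj10 (0.374 to 0.877) lay below that of Kcnj8 (1.19 to 2.34 FPKM). In Mc1r LKO livers the order was Clic4 (9.73 ± 1.43), Clic1 (9.06 ± 1.87), Kcnj8 (1.49 ± 0.369), Kcnj16 (0.376 ± 0.103), Kcnj10 (0.243 ± 0.0557) and Clic5 (0.157 ± 0.0484 FPKM). Kcnj10 and Kcnj16 thus exchanged places, which includes the values that chose Kcnj10.

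Clic5 was a minor part of the CLIC transcripts in every liver. Per length it made up 1.79%, 1.45%, 2.25% and 1.38% of the summed CLIC level in Control and 0.844%, 0.524%, 0.774% and 1.20% in Mc1r LKO livers. The summed CLIC level was 16.8 to 21.2 FPKM in Control and 16.9 to 21.6 FPKM in Mc1r LKO livers, ranges that nearly coincide. Clic4 and Clic1 divided nearly all of it, Clic4 from 37.8% in Control mouse 159 to 62.7% in Control mouse 181 and Clic1 from 35.1% to 60.8% in the same animals in reverse. The balance of these 2 genes varied more between mice of 1 genotype than between the genotypes.

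**Figure D4:**
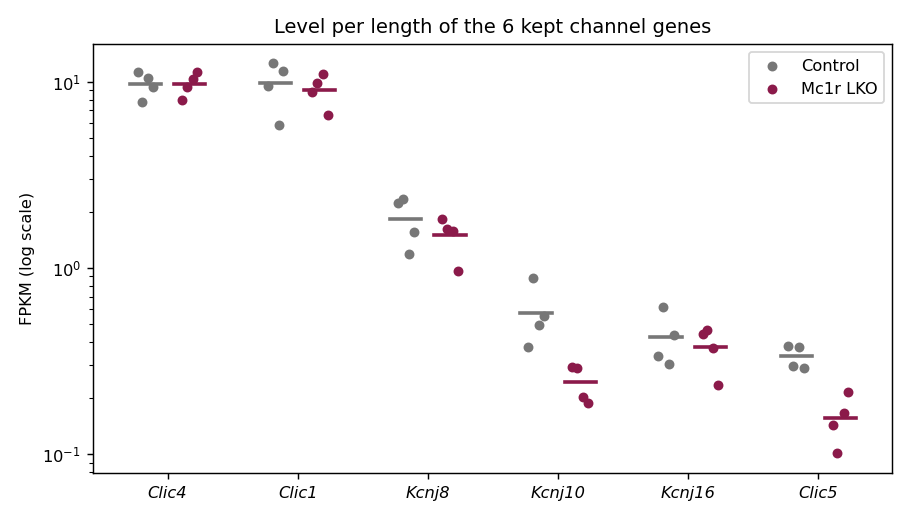
Level per length (FPKM, log axis) of the 6 tested channel genes in each liver, with a line at the mean of each genotype (n = 4). Clic4 and Clic1 lie near 10 FPKM in both genotypes, Kcnj8 lies between them and the other genes, and Kcnj10 and Clic5 are lower in every Mc1r LKO liver.

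Among the relatives, 3 had their highest value, and the lowest value of each genotype, in the same livers. Kcnj16, Kcnj8 and Clic1 were at their highest in Control mouse 159, at 0.62, 0.49 and 0.41 above their own 8-liver mean on the log2 scale. They were low in Control mouse 181 (-0.39, -0.48 and -0.68) and in Mc1r LKO mouse 182 (-0.77, -0.79 and -0.52). Clic5 did not share this, with 0.61 in mouse 181 and -0.19 in mouse 182, and Clic4 was at -0.32 in mouse 159 and 0.21 in mouse 182. Kcnj10 was at 1.10 in mouse 159 and -1.11 in mouse 182, the extremes of its range, but at 0.27 in mouse 181.

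**Figure D5:**
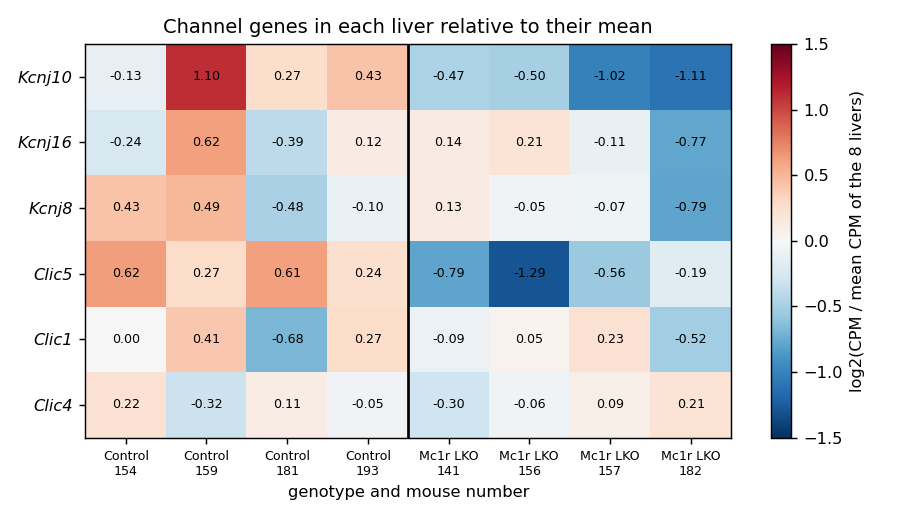
Log2 ratio of each gene's CPM to its mean over the 8 livers, with genes in rows and livers in columns, Control left of the black line. The rows of Kcnj10 and Clic5 change from mostly red (higher) to blue (lower) across the line, while Kcnj16, Kcnj8 and Clic1 are bluest in mice 181 or 182 of either genotype.

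The summed markers of endothelial cells and of stellate cells and pericytes were lowest in mice 181 and 182, in which Kcnj16, Kcnj8 and Clic1 were low. The 6 sinusoidal endothelial markers summed to 188 CPM in mouse 181 and 148 CPM in mouse 182, against 209 to 232 CPM in the other 6 livers. The 5 other endothelial markers summed to 92.3 and 67.4 CPM in these mice and 95.4 to 109 CPM elsewhere, and the 9 stellate cell and pericyte markers to 446 and 435 CPM against 576 to 751 CPM. The 6 Kupffer cell markers were highest in mouse 159 (598 CPM) and lowest in mouse 182 (182 CPM), with 182 to 387 CPM in all livers but mouse 159. Mouse 159, the highest for Kcnj16, Kcnj8 and Clic1, had 231 CPM of sinusoidal endothelial markers, below mouse 141 alone (232 CPM). Its sum of other endothelial markers, 104 CPM, was below that of mouse 154 alone (109 CPM). At 576 CPM, mouse 159 had the lowest stellate cell and pericyte sum of these other 6 livers. Not every marker followed these sums. Rgs5, of the stellate cell and pericyte list, was at 63.4 CPM in mouse 181, its highest level, and at 58.8 CPM in mouse 182. Stab2 (49.0 CPM), Pecam1 (22.8 CPM) and Vwf (8.96 CPM) were not low in mouse 181, though lowest in mouse 182. Kupffer markers were lower in mouse 141 (248 CPM) than in mouse 181 (254 CPM), and mesothelial markers were highest in mouse 182 (5.37 CPM). The part of any of these cells in the levels of the 3 genes was not tested.

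Beside Kcnj10 and Clic5, the summed markers of all 9 cell type lists overlapped between genotypes. Cholangiocyte markers (8 genes) ran from 67.4 to 157 CPM in Control and from 32.8 to 263 CPM in Mc1r LKO livers, and Kupffer markers from 254 to 598 and from 182 to 383 CPM. All 6 Kupffer markers had a lower fitted level in Mc1r LKO livers, with a median log2 fold change of -0.41 and 0 called by edgeR. Lymphocyte markers (5 genes) summed to 1.35 to 3.81 CPM in Control and 1.04 to 1.95 CPM in Mc1r LKO livers, and mesothelial markers (3 genes) to 0.0930 to 0.990 and 0.195 to 5.37 CPM. Markers of nerve glia (5 genes), a cell type in which Kcnj10 is abundant, summed to 2.04 to 3.72 CPM in Control and 1.23 to 3.51 CPM in Mc1r LKO livers. Sox10, the factor that defines this lineage, had 0 counts in all 8 livers. The part of any of these cells in the lower Kcnj10 and Clic5 levels was not tested.

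The nearest tested gene on each side of both genes was read to see whether the region around them moved. Untested genes nearer by were passed over here, so these values do not cover the whole region. Igsf8, 21.4 kb before Kcnj10, had a log2 fold change of -0.24 (SE 0.26, adjusted p = 0.907 in edgeR), and Pigm, 2.46 kb after it, of -0.03 (SE 0.11, adjusted p = 0.978). Enpp4, 29.0 kb before Clic5, had a log2 fold change of 0.11 (SE 0.12, adjusted p = 0.907), and Supt3, 497 kb after it, of 0.15 (SE 0.20, adjusted p = 0.920). No member shared exon bases with another gene on either strand.

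Wider lists of channels and transporters, put together by function, held 187 distinct genes, of which 75 were deep enough to test. In edgeR 3 of the 75 (4%) passed the unadjusted threshold with a lower level and 0 with a higher one, beside 2.66% and 2.64% of all genes, and the median log2 fold change was -0.02. None passed at an adjusted p of 0.05. Of the 12 other genes of the inward rectifier family only Kcnj2 was deep enough to test, and 7 had 0 counts in every liver. The untested genes with the most counts were Kcnj15 (58 over all livers) and Kcnj9 (45), named after their values were seen. Scaled by total count, Kcnj15 averaged 0.333 CPM in Control and 0.449 CPM in Mc1r LKO livers. Kcnj9 averaged 0.534 and 0.188 CPM, with its highest level in Control mouse 159 (1.21 CPM). The groups overlapped for both genes. Kcnj2, the classical inward rectifier of muscle, was at 1.39 ± 0.453 CPM in Control and 0.993 ± 0.475 CPM in Mc1r LKO livers (SD, n = 4 each, log2 fold change -0.44, SE 0.41, adjusted p = 0.894 in edgeR).

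Of 78 other potassium channel genes 16 were tested and 29 had 0 counts throughout. Kcna2, a voltage-gated channel of axons, was the only one past the unadjusted threshold. It was read at 4.20, 10.3, 3.54 and 4.65 CPM in Control and 2.21, 4.16, 2.46 and 2.35 CPM in Mc1r LKO livers, and the groups overlapped through Mc1r LKO mouse 156. Its log2 fold change was -1.001 (SE 0.36, adjusted p = 0.734 in edgeR). The call was lost without Control mouse 159 (-0.56), Mc1r LKO mouse 141 (-0.90) or Mc1r LKO mouse 157 (-0.94). The most abundant of these channels per length, Kcnk5, a pH-sensitive background channel, and Kcnn2, a calcium-activated channel, had log2 fold changes of 0.16 and 0.23 and did not pass.

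None of the 22 tested genes among 43 other chloride channel and transporter genes passed the unadjusted threshold, and their median log2 fold change was -0.03. The most abundant per length were Slc26a1, a sulfate and anion exchanger (0.02), and Ttyh2 (-0.04 on the log2 scale). The 14 tested of 15 partners of CLIC proteins, among them the ezrin, radixin and moesin linkers between membrane and actin, had a median of 0.02 with 0 past the threshold. The most abundant per length were Slc9a3r1, the ezrin-binding scaffold NHERF1 (0.08), and Snx3, a sorting nexin (0.15 on the log2 scale). Gsto1, an omega glutathione transferase of the CLIC fold, had a log2 fold change of 0.21 and did not pass.

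Of 33 ion pump and cation chloride cotransporter genes 20 were tested, with a median log2 fold change of -0.07, and 2 passed the unadjusted threshold, both lower. Slc12a7, the potassium chloride cotransporter KCC4, was read at 91.3, 129, 99.998 and 101.8 CPM in Control and 86.0, 92.1, 78.4 and 89.8 CPM in Mc1r LKO livers, with only mouse 156 above the lowest Control liver. Its log2 fold change was -0.28 (SE 0.11, adjusted p = 0.734 in edgeR), and the call was lost without Control mouse 159 (-0.17), Mc1r LKO mouse 141 (-0.27) or Mc1r LKO mouse 157 (-0.23). Slc12a9, a related transporter, was read at 11.8, 19.3, 12.6 and 11.9 CPM in Control and 10.9, 12.1, 7.88 and 10.0 CPM in Mc1r LKO livers. Its log2 fold change was -0.44 (SE 0.19, adjusted p = 0.738 in edgeR) and -0.24 without mouse 159. The call on Slc12a9 was lost without mouse 159, 181, 141, 157 or 182, and also without mice 181 and 182 together (-0.46). Fxyd1, a regulatory subunit of the sodium potassium pump, had a log2 fold change of 0.19 and did not pass.

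The genes most like Kcnj10 and Clic5 were sought among 12348 genes with a mean of at least 1 CPM, as a description over the same 8 livers, which share libraries and depth. For the log2 level of Kcnj10 they were Phf21a, a chromatin reader (Pearson r = 0.974), Hjurp (0.971), Elf4, an ETS transcription factor (0.971), Brd9 (0.962) and Nrros (0.959). Elf4 had a log2 fold change of -1.28, Nrros of -0.81 and Phf21a of -0.37. For Clic5 they were Depdc7 (0.966), Hira, a histone chaperone (0.930), Slc11a2, an iron transporter (0.929), Pip5k1a (0.921) and Tut7 (0.919), whose log2 fold changes lay between -0.33 and -0.22. Both sets contain the genotype difference that chose the 2 genes. Without the 2 livers farthest from the median of Kcnj10, r of its set was 0.886 (Nrros) to 0.971 (Phf21a). For Clic5, likewise without its 2 farthest livers, r was 0.769 for Slc11a2, 0.798 for Hira and 0.912 to 0.964 for the others. With each genotype's mean subtracted, the closest were 2310033P09Rik (0.994), Cluap1 (0.989) and Ntpcr (0.984) for Kcnj10 and Megf9 (0.986), Adgrl2 (0.984) and Gm49336 (0.981) for Clic5. None of these was among the closest by level.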

How the data were processed

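Liver mRNA of 4 Control and 4 Mc1r LKO mice was sequenced with a stranded kit, 1 library per mouse, and groups follow the genotype labels. The authors deposited raw counts, the whole number of read pairs assigned to each gene, not normalized. Per the submitters' processing notes they used Trim Galore 0.6.6, STAR 2.7.6a and Subread 2.0.1. The file headers give GRCm38, Ensembl release 102 and strand option 2, whereas the written methods name the human build. Symbols were matched for 55141 of 55487 gene identifiers.

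Counts were fitted in edgeR 4.0.16 (R 4.3.3) with filterByExpr, which kept 13400 genes, TMM normalization and the quasi-likelihood test, without covariates, and p-values were adjusted by Benjamini-Hochberg over all genes kept. The study names the filter and normalization but not the test. CPM and FPKM are TMM-scaled. Clic3 and Clic6 were not kept, and Clic6 was tested by an exact permutation test over 70 assignments. The fit was tested on simulated data. Total counts set the depth, and limits from 3 counts cover counting error only. The edgeR p-values set each genotype difference against the variation between these livers, estimated with information from all genes kept. That of Clic6 is the share of assignments with a difference at least as large.

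The members and lists were chosen with earlier results of these data known. Named genes were the 8 members, list genes past the unadjusted threshold (at most the 4 with the smallest p) and the 2 highest per length in each list, the nearest kept neighbours, and the 5 genes of highest Pearson r by each measure of likeness, of which the first 3 are named for the deviations. Another gene that this rule selects is not reported here by name, though list counts include it. Promoter windows of RefSeq were searched on both strands. Alternatives were DESeq2 1.42.0, limma-voom (limma 3.58.1), edgeR's likelihood ratio test, robust dispersion, other normalizations and filters, no fold limit, and each liver left out in turn.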

Additional observations from a re-analysis of the deposited data

Results flagged for a closer look

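In 60 groups of 4 livers, 1 value stood apart from the other 3 in 6 groups, where chance alone flags about 1 in 20, or 3 groups. None of them was a channel gene among the 8 members. Control mouse 159 accounted for 3, with Kcna2 at 10.3 CPM (other Control livers 3.54 to 4.65), Slc12a9 at 19.3 CPM (11.8 to 12.6) and Fxyd1 at 238 CPM (181 to 187). This mouse also had the shallowest library, at 10773151 counts. Mc1r LKO mouse 156 had Kcna2 at 4.16 CPM, against 2.21 to 2.46 in the others of its genotype. The summed sinusoidal endothelial markers were 188 CPM in Control mouse 181 (224 to 231), and the summed mesothelial markers were 5.37 CPM in Mc1r LKO mouse 182 (0.195 to 0.277).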

How the results depend on the processing

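The log2 fold change was -1.26 to -1.15 for Kcnj10 and -1.14 to -1.08 for Clic5 under the 9 other tests, normalizations and filters with all livers, and the relatives passed neither threshold under any of them or with any liver left out. For Kcnj16 and Kcnj8 the adjusted threshold could not be applied in DESeq2, which gave them no adjusted p. Left-out livers gave -1.38 to -0.96 for Kcnj10, -1.27 to -0.93 for Clic5, -0.28 to 0.059 for Kcnj16, -0.44 to -0.11 for Kcnj8, -0.29 to 0.031 for Clic1, -0.088 to 0.090 for Clic4 and -0.0522 to 0.0309 CPM for the Clic6 difference. The sign turned for Kcnj16 without mouse 159 (0.059) or 182 (0.026), for Clic1 without 159 (0.031) or 182 (0.028), for Clic4 without 154 (0.080), 181 (0.036), 141 (0.090) or 156 (0.017) and without a filter (0.0011), and for Clic6 without 154 (0.0309 CPM). The cause was not tested. Of the wider lists, 3 genes were lower past the threshold, 5 with total-count scaling, 5 without a filter and 0 to 4 with a liver left out (1 without 159, 1 without 141, 0 without 157). Higher genes numbered 0, with 1 without a filter, 1 with at least 10 counts in every liver and 0 to 2 with a liver left out. Slc12a9 also lost its call with upper quartile normalization. Leaving out mice 181 and 182 together was chosen after seeing the data, and 4 list genes were then lower. Total-count scaling moved the median of all genes from -0.01 to -0.06. Counts per liver were 0 for Clic3, 0 to 4 for Clic6 and 15 to 73 for Kcnj10, Clic5 and Kcnj16. No paired analysis was possible because the labels give no litter or cage by which mice of the groups could be paired.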

Other observations

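Among chloride channel genes that did not pass the threshold, Clcn7, the lysosomal chloride and proton exchanger, was lower in every Mc1r LKO liver than in every Control liver, at means of 44.5 against 50.4 CPM (log2 fold change -0.18). Ano1, a calcium-activated chloride channel, was higher in every Mc1r LKO liver, at 1.87 against 1.29 CPM (0.53 on the log2 scale). Both were chosen after their values were seen, and such separation was found in 1.54% of all genes tested for lower and 2.63% for higher levels. Cftr, the chloride channel of cholangiocytes, had 21 counts over all 8 livers and was not tested.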
